A study of Mus musculus with 20 samples.

Results

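The 8 genes described here were grouped under the storage, transport, oxidation and breakdown of vitamin A in the liver, with a retinoic acid receptor. They were chosen by name as retinoid genes from 16535 genes that the array's probes could be matched to. The rule held no measured value, but earlier results of these data were known when the genes were chosen. They are *Lrat* and *Rbp4* (storage and transport), *Adh1*, *Aldh1a1* and *Aldh1a7* (oxidation), *Cyp26a1* and *Cyp26b1* (breakdown) and *Rarb* (receptor). All 8 genes, through 10 probes, passed the presence filter, which kept 27346 of 41174 probes.

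The samples were livers of male Muta™Mouse animals of transgenic strain 40.6, aged 25 weeks, all carrying a lacZ reporter transgene. The 4 groups of 5 mice were gavaged each day over 28 days with olive oil alone (control, replicates 1 to 5) or with benzo(a)pyrene (BaP) dissolved in it. The low dose was 25 mg/kg/day (replicates 6 to 10), the middle dose 50 mg/kg/day (replicates 11 to 15) and the high dose 75 mg/kg/day (replicates 16 to 20), and RNA was collected 3 days after dosing ended. Each liver RNA, labeled with Cyanine 5, shared a 2-color array with Cyanine 3-labeled reference RNA pooled from mouse cell lines, so a value below is a log2 ratio of liver over reference for 1 probe. A whole liver piece mixes cell types, and the reference is not a liver, so neither the ratio nor its change is a measure of any 1 cell type: in bulk RNA, fewer cells of a type and less RNA per cell cannot be told apart.

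Dietary retinol is bound in the cell by retinol-binding proteins, turned into retinyl esters by LRAT, and stored mainly in the lipid droplets of stellate cells, while hepatocytes secrete retinol bound to RBP4. Alcohol dehydrogenases and retinol dehydrogenases oxidize retinol to retinal, retinal dehydrogenases of the ALDH1A family oxidize that to retinoic acid, and the CYP26 cytochromes remove retinoic acid by hydroxylation. Retinoic acid activates nuclear receptors of the RAR family, which pair with RXR receptors on DNA. BaP is a ligand of the aryl hydrocarbon receptor, and loss of liver retinoid stores is a known effect of strong ligands of that receptor in rodents. The comparison of each dose with the control asks whether transcripts of this pathway differed after repeated BaP exposure.

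*Cyp26a1* and *Rarb* are textbook targets of retinoic acid, and a repeat of the kind that retinoic acid receptors bind is shown in their promoters, since both genes are members described by array. Promoters of all 8 genes were found in a RefSeq promoter table (GRCm38.p6, 10 start sites, 250 bases before to 50 after each). The motif searched was a direct repeat of the half-site NGNTCA, with A or G as its first base and G or T as its middle N, and with any 5 bases between its copies, on both strands. It occurs in 0.0974% of the 32851 promoters in the table and in 2 of the 8 genes. The 250 bases before the start follow, 5′ to 3′ on the gene's own strand, with the repeat and its spacer in capitals. The *Cyp26a1* stretch is chr19:37697558-37697807 on the plus strand, and its repeat runs from -32 to -16 relative to the start and reads as a repeat on the opposite strand. The *Rarb* stretch is chr14:16575477-16575726 on the minus strand, with the repeat from -53 to -37.
Cyp26a1: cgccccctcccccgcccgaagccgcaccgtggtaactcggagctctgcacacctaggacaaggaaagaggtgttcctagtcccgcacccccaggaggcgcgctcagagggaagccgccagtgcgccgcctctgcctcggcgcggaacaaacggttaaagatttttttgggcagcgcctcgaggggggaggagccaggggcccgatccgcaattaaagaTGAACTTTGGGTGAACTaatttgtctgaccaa
Rarb: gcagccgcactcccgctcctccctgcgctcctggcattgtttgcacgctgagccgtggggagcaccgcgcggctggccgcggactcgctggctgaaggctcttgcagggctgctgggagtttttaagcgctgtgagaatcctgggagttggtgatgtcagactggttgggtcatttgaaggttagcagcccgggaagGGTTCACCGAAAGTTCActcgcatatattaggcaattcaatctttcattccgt
The same half-sites with 2 bases between them occur in 0.268% of promoters and in 0 of the 8 genes. The core of the aryl hydrocarbon receptor element, GCGTG, occurs in 32.4% of promoters and in 3 of the 8 genes (*Rarb*, *Lrat* and 1 of the start sites of *Rbp4*), and it overlaps neither repeat. These matches describe letters in the windows and do not show binding.

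In the liver channel, between 51.9 and 67.5% of an array's spots stood well above background, with control replicate 4 the highest. The arrays lay on 6 slides with positions partly tied to dose: every low-dose array sat at position 2 and every high-dose array at position 4, while control replicate 2 shared position 2 and middle-dose replicate 13 shared position 4. The part of position in the values was not tested. Slides 4 and 5 held no control. A label names lungs as the source and another names liver. All 9 hepatocyte markers matched to a probe were well above background on all 20 arrays, and the samples were taken as liver. Lung markers were mixed: the surfactant genes *Sftpc* and *Sftpb* were so on 0 of 20 arrays, *Sftpa1* on 16 and *Sftpd* on 19. The low dose is given as in the sample labels, and the series description has 24 in place of 25 mg/kg.

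No retinoid gene passed the test at any dose. In limma with Benjamini-Hochberg adjustment over all 27346 probes, 0 of 8 genes were called (a fold change over 1.5 at an adjusted p under 0.05) at the low, middle or high dose, where 0%, 0% and 0.135% of all probes were called. At an unadjusted p under 0.05 the counts were 0, 1 and 2 of 8, against 7.81%, 6.7% and 11.2% of all probes. With dose as a number, 0 of 8 had a trend at an adjusted p under 0.05 and 0.157% of all probes did, with 1 of 8 (*Cyp26a1*) and 8.58% of all probes at an unadjusted p under 0.05. These counts take each gene by its brightest present probe, and the unadjusted ones depend on that choice. The other *Adh1* probe (A_51_P428555) had a slope of 0.16 (SE 0.05) per 25 mg/kg/day, with a limma p of 0.00707 and a limma adjusted p of 0.373. The other *Lrat* probe (A_51_P350033) had a limma p of 0.0499 at the high dose, with a limma adjusted p of 0.446. That probe was well above background on only 3 of 5 control arrays. The counts of called members were also 0 under each of the other processing settings and with any 1 array left out. The study, with another test and 1 sample removed, reports more transcripts at each dose than the probes called here. A count of 0 called is thus not a finding of no change.

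The estimated log2 fold changes were above 0 for all 8 genes at each dose, with medians of 0.29, 0.37 and 0.35, but not under every setting: on the liver channel alone 7, 8 and 6 of 8 lay above 0 with medians of 0.07, 0.22 and 0.12, and with slide as a block 5, 8 and 7 of 8 with medians of 0.07, 0.37 and 0.19. Over all genes with a present probe the medians were -0.01, -0.01 and 0, and 47.4%, 48.7% and 49.9% of them were above 0. The 3 comparisons share the same 5 control arrays, so they are not separate evidence of a direction. Hepatocyte markers (9 of 12 listed genes present) also lay above 0 for 9 of 9 genes at each dose, with medians of 0.30, 0.23 and 0.38, and on the liver channel alone for 6, 7 and 6 of 9, with medians of 0.08, 0.11 and 0.03. Their mean log2 ratio ranged from 4.16 to 5.37 in the controls and from 4.83 to 5.41 in all exposed arrays, and 49.6% of its variance lay between slides. The part of these markers in the retinoid gene values was not tested.

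**Figure D1:**
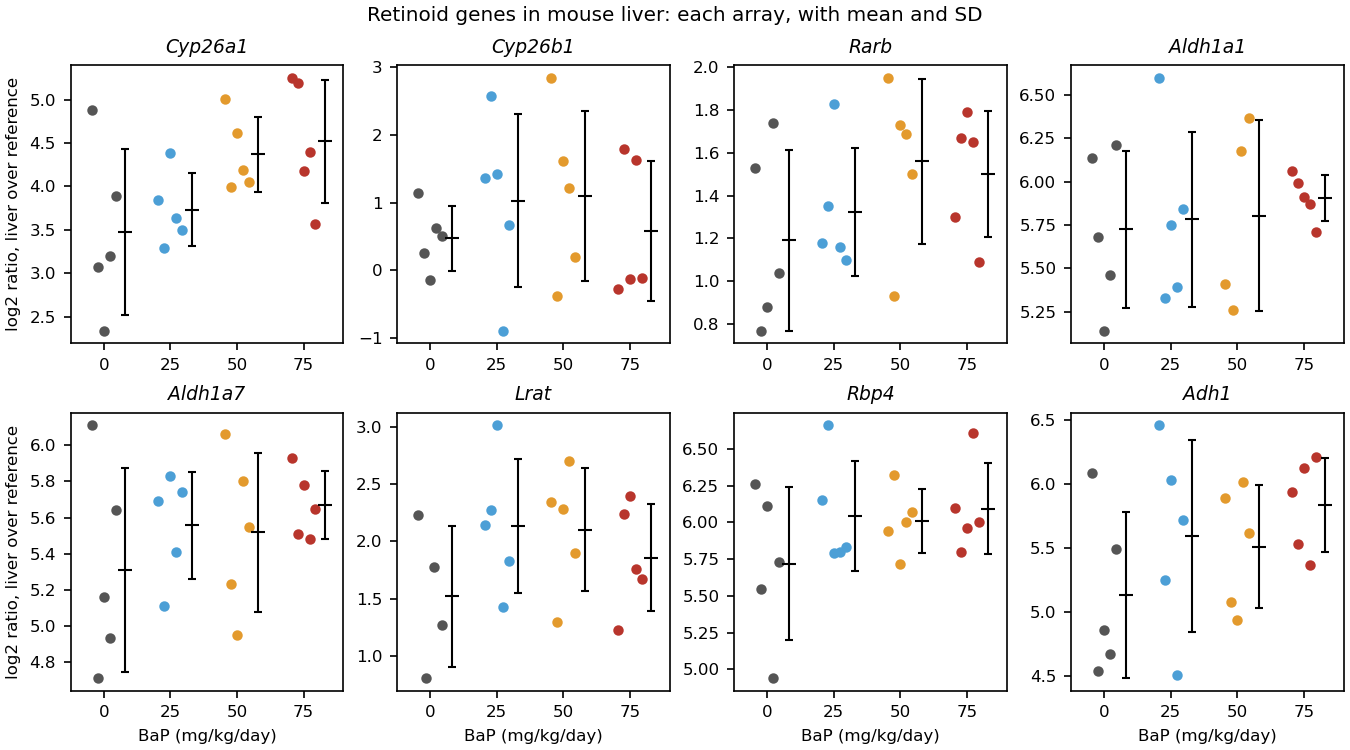
Log2 ratio of liver over reference RNA (y axis, 1 scale per panel) for the 8 retinoid genes against BaP dose in mg/kg/day (x axis). Each point is 1 array, and the bar beside it is the mean with its SD (5 arrays, or 4 for *Lrat* controls and *Aldh1a1* at the middle dose). Exposed and control points overlap for every gene, and the mean of *Cyp26a1* is highest at the high dose (4.52).

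Among the breakdown enzymes, *Cyp26a1*, the main retinoic acid hydroxylase of the liver, had the largest estimate of the 8 genes at the middle and high dose. Its probe (A_52_P382149) was well above background on all 20 arrays. The log2 ratios of control replicates 1 to 5 were 4.88, 3.07, 2.34, 3.20 and 3.89. At the low dose they were 3.84, 3.29, 4.39, 3.64 and 3.50. The low-dose arrays thus lay inside the control range. At the middle dose the ratios were 5.01, 3.99, 4.62, 4.19 and 4.05, and at the high dose 5.25, 5.19, 4.18, 4.40 and 3.57. Of the 5 high-dose arrays, 2 exceeded every control and the other 3 lay within the control range, which control replicate 1 set at its upper end. Group means were 3.48 ± 0.96 (SD, n = 5), 3.73 ± 0.42, 4.37 ± 0.43 and 4.52 ± 0.71 from the control to the high dose, and neighbouring groups overlapped at each step.

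The *Cyp26a1* log2 fold change against control was 0.25, 0.90 and 1.04 (SE 0.38 each) at the 3 doses. The high-dose value, a fold change of 2.06, had a 95% interval of 0.25 to 1.83 on the log2 scale and a limma p of 0.0125 (adjusted p = 0.323). At the middle dose the limma p was 0.0285 and the adjusted p 0.722. The slope over dose was 0.38 ± 0.12 (SE) per 25 mg/kg/day, with a limma p of 0.00368 and an adjusted p of 0.293. Within the 3 slides that held both a control and a high-dose array, the high-dose array was higher by 1.99, 0.30 and 0.36. With slide as a block the estimate at the high dose was 0.99 (limma adjusted p = 0.281). Leaving out single arrays gave 0.76 to 1.39, with the lowest limma adjusted p (0.0758) without control replicate 1. *Cyp26a1* was thus higher in mean at the upper doses, by an amount that did not pass the test across the array.

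*Cyp26b1*, the related retinoic acid hydroxylase, had the widest spread of the 8 genes, a range of 3.72 over the 20 arrays against 2.90 for *Cyp26a1*. Its probe (A_51_P501844) gave control ratios from -0.15 to 1.14 with a median of 0.50. The exposed groups ran from -0.89 to 2.58 at the low dose, -0.38 to 2.84 at the middle dose and -0.28 to 1.79 at the high dose. Each exposed group had arrays on either side of all controls: 3 above and 1 below at the low dose, 3 above and 1 below at the middle dose, and 2 above and 1 below at the high dose. The log2 fold changes were 0.56, 0.63 and 0.11 (SE 0.60), with limma adjusted p between 0.829 and 0.967. With slide as a block the estimate turned to -0.11 at the low dose and -0.56 at the high dose, so *Cyp26b1* had no settled direction.

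*Rarb* encodes a retinoic acid receptor whose own gene retinoic acid switches on. Its probe (A_51_P202440) gave 1.53, 0.77, 0.88, 1.74 and 1.04 in the controls. The high-dose ratios were 1.30, 1.67, 1.79, 1.65 and 1.09. Only 1 of these 5 exceeded all controls. At the low and middle dose the groups ran from 1.10 to 1.83 and from 0.93 to 1.95, again with 1 array above all controls in each. The log2 fold changes were 0.13, 0.37 and 0.31 (SE 0.21), with limma adjusted p of 0.898, 0.781 and 0.597.

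For storage, *Lrat*, the enzyme that esterifies retinol, was read by a pair of probes. The brighter one (A_52_P669005) gave 2.23, 0.81, 1.78 and 1.27 in control replicates 1, 3, 4 and 5. Control replicate 2 was left out of the fit of this probe because its spot carried an outlier mark, and that spot had the highest liver intensity of the 20 arrays for this probe (465, against at most 397 elsewhere). At the low dose the ratios were 2.14, 2.27, 3.01, 1.43 and 1.83. At the middle dose they were 2.34, 1.30, 2.28, 2.70 and 1.90, and at the high dose 1.23, 2.24, 2.40, 1.76 and 1.67. Between 2 and 3 arrays of each dose exceeded the 4 controls kept, and all groups overlapped. The log2 fold changes were 0.61, 0.58 and 0.34 (SE 0.33), with limma adjusted p of 0.658, 0.781 and 0.739. The dimmer probe (A_51_P350033) gave 0.35, 0.25 and 0.35 (SE 0.17), in the same direction. On the scanner software's own processed signals the *Lrat* estimates were 2.00, 1.95 and 1.43 (limma adjusted p of 0.6, 0.568 and 0.443). Under other settings they fell as low as 0.26, 0.34 and 0.07, so their size depends on the processing of this dim gene.

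Stellate cells hold most liver retinyl ester and *Lrat*, and their 14 listed markers were all present. Their medians were 0.30, 0.40 and 0.33 at the 3 doses, with 11 of 14 above 0 each time and 0 called, and on the liver channel alone the medians were 0.25, 0.41 and 0.26. At an unadjusted p under 0.05, 6, 8 and 5 of the 14 were higher and 0 lower, where 4.18%, 3.75% and 6.52% of all probes were higher. Among 9 hepatocyte markers 1, 1 and 6 were higher, and among 10 endothelial markers 4, 3 and 5, with 0 lower in either. Of 6 bile duct markers 0, 0 and 1 were higher and 1, 0 and 1 lower. Such counts were thus not particular to the stellate list. The list holds *Ngfr*, which the study reports as up-regulated at its highest dose in these samples, so the list is not independent of the study's results. The mean log2 ratio of the list ranged from -0.36 to 0.34 in controls, 0.10 to 0.44 at the low dose, 0.15 to 0.50 at the middle dose and 0.13 to 0.66 at the high dose, with 40.2% of its variance between slides. *Reln*, *Dcn* and *Lhx2*, defining markers of these cells, were well above background on 20 of 20 arrays. Of the rest of the list, *Hand2* was so on 10 arrays, *Vipr1* on 18 and all others on 20. *Lrat* and the stellate list thus lay on the same side of 0, and the part of one in the other was not tested.

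*Rbp4*, which carries retinol out of hepatocytes, had group means within the spread of the controls. Its probe (A_51_P374752) gave 4.94 to 6.26 in controls (median 5.73). The exposed groups ran from 5.79 to 6.66, 5.72 to 6.32 and 5.80 to 6.61 in order of dose. A single array of each dose exceeded all controls, and the low end of the control range was control replicate 4, the array that stood apart in its share of spots above background. Its liver intensity before normalization was 283000, against 284000 in control replicate 1, which had the highest control ratio (6.26). These 2 arrays thus differed in ratio but little in liver intensity, and the cause was not tested. Log2 fold changes were 0.32, 0.29 and 0.37 (SE 0.22), with limma adjusted p between 0.533 and 0.831. Over the other settings and with an array left out they ran from 0.05 to 0.46, 0.09 to 0.42 and 0.15 to 0.51.

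Among the oxidizing enzymes, *Adh1*, the class I alcohol dehydrogenase of hepatocytes, had the largest estimate. Its brighter probe (A_52_P629895) gave 6.09, 4.54, 4.86, 4.67 and 5.49 in the controls. At the low dose the ratios were 6.46, 5.25, 6.03, 4.51 and 5.72, and at the middle dose 5.89, 5.08, 4.94, 6.02 and 5.62. The high-dose ratios were 5.94, 5.53, 6.13, 5.37 and 6.21. All 5 arrays at the high dose exceeded the control mean of 5.13 ± 0.65 (SD, n = 5), and 2 of them exceeded every control, whereas the low-dose arrays included 1 above and 1 below all controls. The log2 fold change was 0.46, 0.38 and 0.71 (SE 0.33), and at the high dose the limma p was 0.0466 and the adjusted p 0.44. The dimmer probe (A_51_P428555) gave 0.39, 0.46 and 0.51 (SE 0.17), with limma p of 0.0319, 0.0133 and 0.00678 and adjusted p of 0.636, 0.678 and 0.275. Both probes were higher in mean at each dose, and neither passed the test. The size of the estimate depended on the setting. On the liver channel alone the brighter probe gave 0.08, 0.08 and 0.09 at the 3 doses, and with slide as a block 0.08, 0.38 and 0.32, against 0.56 to 0.95 at the high dose with an array left out. The differences within slides 1 to 3 at the high dose were 0.86, 0.65 and -0.15 for the brighter probe.

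*Aldh1a1* and *Aldh1a7*, neighbouring aldehyde dehydrogenase genes of closely similar sequence, are read by 1 probe each, and whether each probe also binds the other's transcript was not tested. *Aldh1a1* (A_51_P334942) gave 5.14 to 6.21 in controls, 5.33 to 6.60 at the low dose, 5.26 to 6.37 at the middle dose over 4 arrays, and 5.71 to 6.06 at the high dose. Replicate 15 carried an outlier mark and was left out there. Its log2 fold changes of 0.06, 0.08 and 0.18 (SE 0.25, 0.27 and 0.25) were the smallest of the 8 genes at the low and middle dose and turned below 0 under some settings. *Aldh1a7* (A_51_P383399) gave 4.71 to 6.11 in controls, and 5.11 to 5.83, 4.95 to 6.06 and 5.48 to 5.93 in order of dose. Every exposed array of *Aldh1a7* lay within the control range. Its log2 fold changes were 0.25, 0.21 and 0.36 (SE 0.23), with limma adjusted p of 0.804, 0.896 and 0.577.

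**Figure D2:**
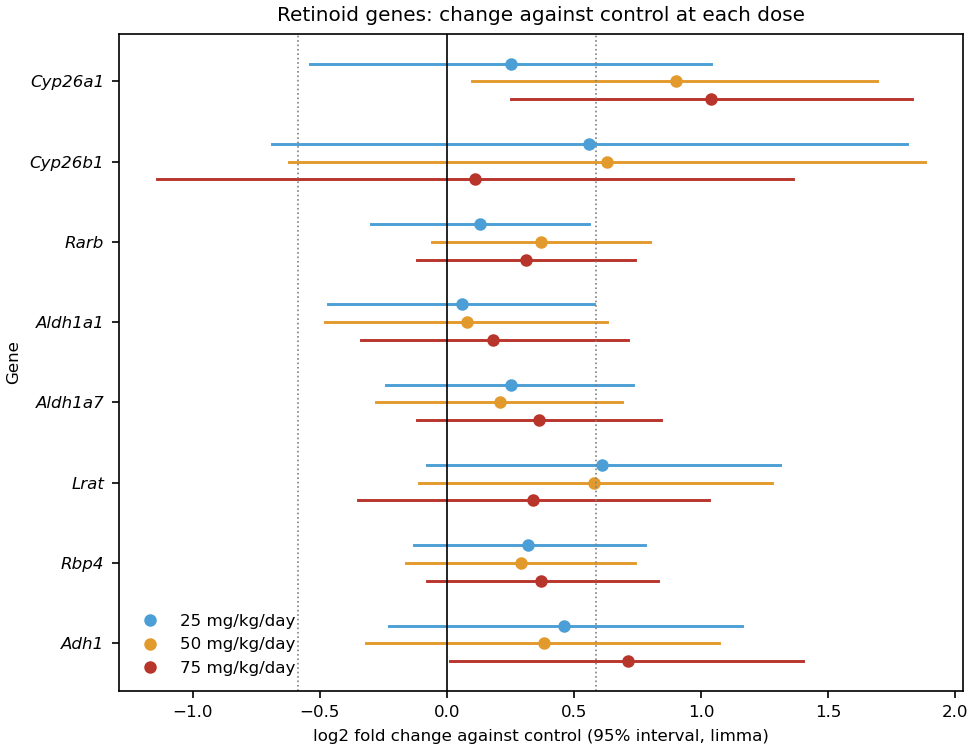
Log2 fold change of each retinoid gene (y axis) against control at the 3 doses (x axis), with 95% intervals from limma. The dotted lines mark a fold change of 1.5 in either direction. All estimates lie above 0 in this fit, although *Aldh1a1* and *Cyp26b1* turned below 0 on the liver channel alone or with slide as a block, and the intervals of *Cyp26a1* at the middle and high dose and of *Adh1* at the high dose do not reach 0 before adjustment.

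Much of the spread of several genes lay between slides. Of the variance over the arrays, 79.7% for *Aldh1a7*, 77.6% for *Adh1* and 52% for *Rbp4* was between the 6 slides, against 11.8%, 19.1% and 16.1% between the 4 groups. For *Cyp26a1* the shares were 28% between slides and 34.5% between groups. These shares overlap because slides and groups are not balanced. They are also not adjusted for the number of levels, so 6 slides take on average a larger share than 4 groups even where neither matters. The slide shares of the marker lists have the same limit. Control replicate 1, on slide 3, had the highest control value for 6 of the 8 genes and also the highest mean of hepatocyte markers among controls (5.37). Without it the *Cyp26a1* estimates were 0.61, 1.25 and 1.39.

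The genes with the pattern most like each member were sought by Pearson correlation of log2 ratios over the arrays, given as a description since all points share arrays, slides and the reference. *Cyp26a1* was closest to *Ccng1* (r = 0.78, n = 20), a p53 target, then to *Slc26a4* (0.75) and *Acan* (0.74). With slide means removed these were 0.77, 0.83 and 0.72. *Adh1* was closest to *Cyp2e1* (r = 0.94), *Slc27a5* (0.94) and *Tdo2* (0.93), all hepatocyte genes, and with slide means removed the values fell to 0.80, 0.81 and 0.78. *Aldh1a7* went with *Itih2* (0.97), *Ugt3a2* (0.97) and *Cyp7b1* (0.96). *Rbp4* went with *Fabp1* (0.94), *Ces1c* (0.90) and *Hbb-bt* (0.89), the last a red cell gene. *Lrat* went with *C1qtnf2* (0.86), *Esrrb* (0.85) and *Tlcd4* (0.82) over 19 arrays, and *Aldh1a1* with *Sox17*, *Rab21* (0.78 each) and *Crot* (0.75) over 19. *Rarb* went with *Sik3* (0.81), *Gstt1* (0.80) and *Nfe2l2* (0.78). The weakest likeness was that of *Cyp26b1*, with *Ces4a* (0.70), *Uqcc1* (0.68) and *Slc7a9* (0.66).

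Of 58 other retinoid pathway genes, 55 were on the array and 50 were present. None was called at any dose (0 of 50 each time) or with a dose trend in limma (10 of 50 had a trend at an unadjusted p under 0.05, against 8.58% of all probes). At an unadjusted p under 0.05, 2 were higher and 2 lower at the low dose, where 4.18% of all probes were higher and 3.62% lower. At the middle dose the counts were 3 and 0, against 3.75% and 2.94% of all probes. At the high dose they were 10 and 3, against 6.52% and 4.69%. The medians of the 50 genes were 0.06, 0.05 and 0.10. The study lists *Rdh11* from these same samples, so its place among the highest is not independent evidence.

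*Rdh11*, a retinal reductase, had the highest estimate of the 50 at the high dose and gave 1.25 to 1.86 in controls and 2.02 to 2.52 at the high dose. The groups did not overlap at that dose, as for 0.936% of all probes in this direction. Its log2 fold change of 0.57 (SE 0.18) had a limma adjusted p of 0.256, and its other probe gave 0.63 (0.0809). The next estimates at the high dose were those of *Akr1b8* (0.48), an aldo-keto reductase, *Ces1f* (0.47), a carboxylesterase, *Rarres2* (0.41, but -0.07 on the liver channel alone), which encodes chemerin, and *Rdh7* (0.40), a short-chain dehydrogenase. Their limma adjusted p lay between 0.278 and 0.487.

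At the lower end, the orphan receptor *Nr2f2* gave -1.63 to -0.40 in controls and -1.80 to -1.27 at the high dose, a log2 fold change of -0.62 (SE 0.19, limma adjusted p = 0.233). *Nr2f2* was lower at the low dose too (-0.56, limma adjusted p = 0.636) and level at the middle dose (0.00). All low-dose arrays sat at position 2 and all high-dose arrays at position 4, so dose and position cannot be fully told apart. Slide as a block does not adjust for position, and the part of position was not tested. With slide as a block the *Nr2f2* estimate at the high dose was -0.93 (limma adjusted p = 0.0211), and without control replicate 3 it was -0.82 (0.0259), so the call depends on the setting. *Rxrg*, a retinoid X receptor, gave 4.59 to 4.79 in controls and 4.16 to 4.47 at the high dose. Those groups did not overlap, as for 0.581% of all probes in this direction, and its log2 fold change was -0.36 (SE 0.14, limma adjusted p = 0.326) but 0.09 on the scanner software's processed signals. *Rdh13* (-0.25), *Adh7* (-0.25), an alcohol dehydrogenase, and *Nrip1* (-0.22), a receptor corepressor, followed.

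**Figure D3:**
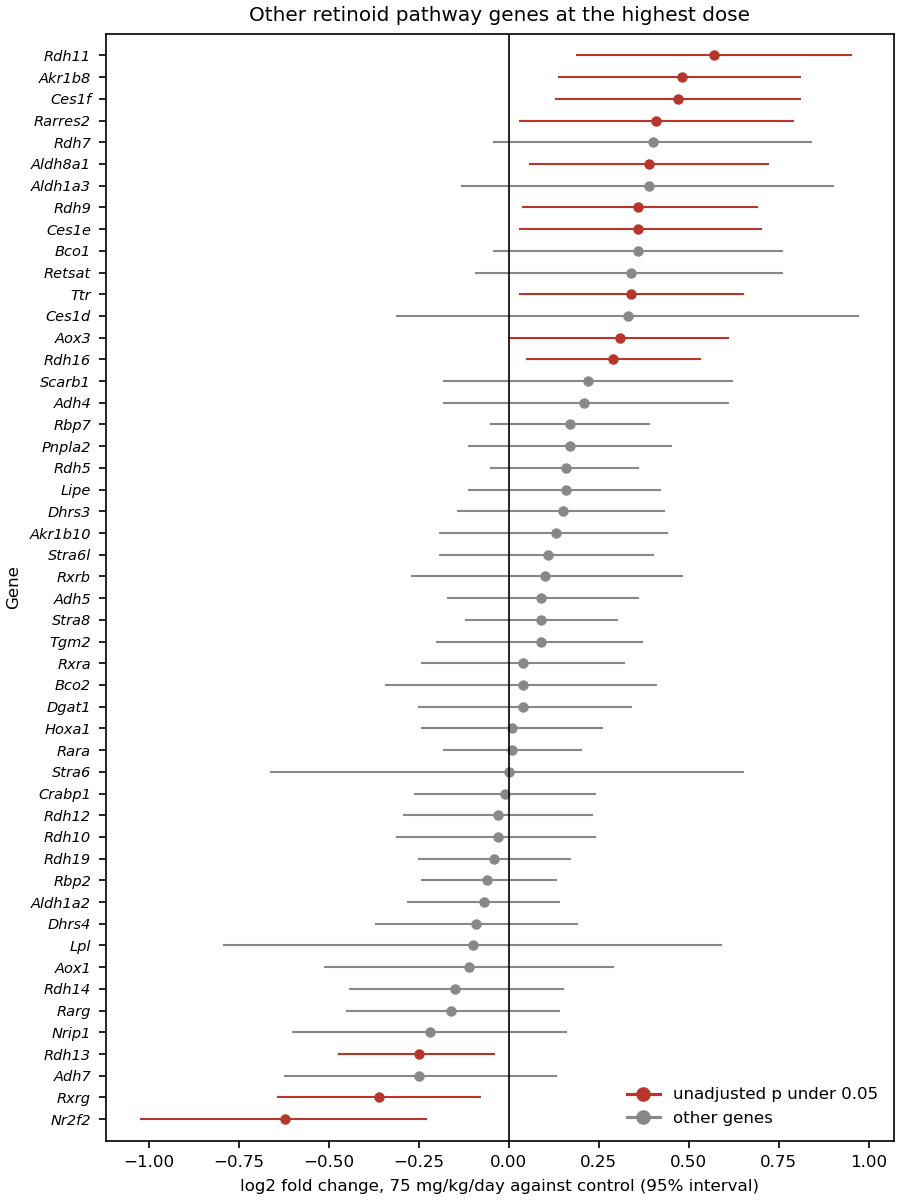
Log2 fold change at the high dose against control (x axis, with the 95% interval from limma) of the 50 other retinoid pathway genes (y axis, in order of size). Genes at an unadjusted p under 0.05 are red, 10 higher and 3 lower, and the highest is *Rdh11* (0.57) and the lowest *Nr2f2* (-0.62).

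Known targets of the aryl hydrocarbon receptor were read on the same arrays. Of 6 present targets, 1 was called at the high dose, as were 0.135% of all probes, and 0 at the lower doses. *Nqo1*, a quinone reductase, rose by 0.68 (SE 0.13, limma adjusted p = 0.0386), from -2.02 to -1.53 in controls to -1.29 to -1.02 at the high dose, with no overlap (as for 0.936% of all probes in this direction, *Tiparp* among them). Its call was lost under several settings, among them the study's own normalized ratios (limma adjusted p = 0.0739), and without control replicates 1, 2, 4 or 5, replicate 15 or replicates 16, 17, 18 or 20 (up to 0.122). *Tiparp*, a receptor-induced ADP-ribosyltransferase, was higher at the high dose in 5 of 5 arrays than in any control (0.54, SE 0.13, limma adjusted p = 0.131), and with slide as a block the adjusted p was 0.037. *Cyp1a1*, the classical target, was well above background on only 11 of 20 arrays. Its log2 ratios were -0.24 to 0.56 in controls and 0.07, 0.07, 0.21, 0.49 and 3.64 at the high dose, a log2 fold change of 0.72 (SE 0.45, limma adjusted p = 0.566). It was 0.04 without replicate 16, which held the highest value. *Cyp1a2* (0.31), *Ahrr* (0.09) and *Cyp1b1* (-0.12) did not pass the test. The other *Cyp1a2* probe (A_51_P450140) gave 0.32, 0.31 and 0.45 (SE 0.12) in order of dose. At the high dose its limma p was 0.000862 and its limma adjusted p 0.146, so it did not pass the test either. For that probe, 4 of 5 high-dose arrays exceeded all controls.

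**Figure D4:**
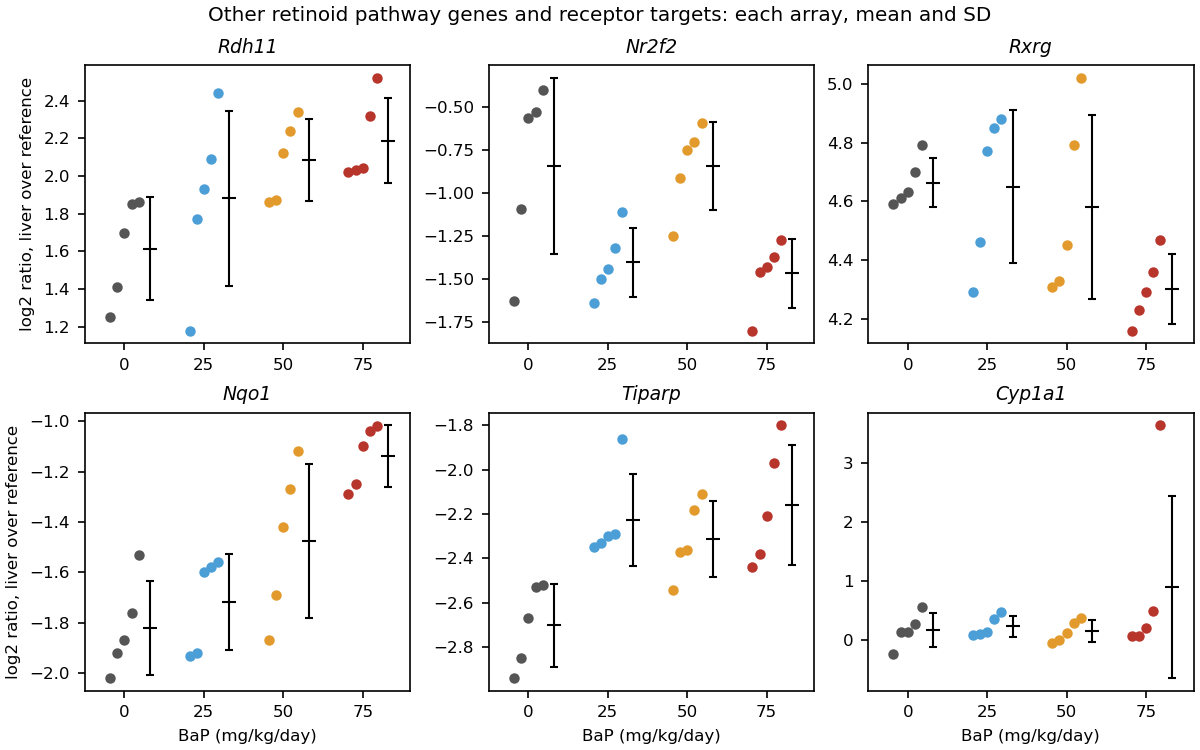
Log2 ratio of liver over reference RNA (y axis, 1 scale per panel) against BaP dose in mg/kg/day (x axis) for *Rdh11*, *Nr2f2*, *Rxrg*, *Nqo1*, *Tiparp* and *Cyp1a1*. Each point is 1 array, in order of size within a group, and the bar is the mean with its SD (n = 5). *Nqo1*, *Rdh11* and *Tiparp* at the high dose lie above all controls, and *Cyp1a1* has a single array at 3.64.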

How the data were processed

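Scanner intensities, the median brightness of each spot and its local background in both channels, were deposited by the authors as extracted by the scanner software without normalization, together with processed intensities (background subtracted and dye normalized) and marks for spots that were outliers, saturated or well above background. A table of log2 ratios (liver to reference) that the authors had normalized by LOWESS was deposited too. Here the median intensities were corrected by normexp with an offset of 50, put through loess normalization array by array and averaged as log2 ratios over the spots of a probe, with marked outliers left out. No spot was saturated (0 over the 20 arrays). A probe was present above the trimmed mean (5%) plus 3 trimmed SDs of 153 negative control spots on at least 4 of the 5 arrays of a group.

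A limma model of all 20 arrays compared every dose with the control, a further model took dose as a number, and p-values were adjusted by Benjamini-Hochberg over 27346 probes. MAANOVA, which the study used, was not used here. The study removed 1 sample without naming it, and all 20 were kept. R 4.3.3, limma 3.58.1, statmod 1.5.0, data.table (1.17.8), Python 3.11.15 and matplotlib 3.10.9 were used, and the fits were tested on simulated data.

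Symbols came from RefSeq accessions (23374 of 41174 probes). A gene is given by its brightest present probe. The text names all 8 genes at every dose, other pathway genes that were called, the 5 of largest rise and the 5 of largest fall at the high dose, 6 receptor targets, and for each member the 3 genes most correlated with it. A pathway gene is not reported here and was left out of the list's counts. The members and lists were chosen with earlier results of these data known. Marker lists covered hepatocytes (pericentral ones also apart), stellate, endothelial, Kupffer and bile duct cells, adipocytes and lung. Alternatives were background correction, the processed intensities, the deposited log2 ratios, the liver channel alone, slide as a block, the presence filter, the arrays in the model, the adjustment, the fold limit, the probe choice and each array left out. For the named genes outside the members, these were chosen after seeing the data. Replicates are separate mice, and precision is limited by the number of arrays.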

Additional observations from a re-analysis of the deposited data

Results flagged for a closer look

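The named probes gave 104 groups of 5 arrays, and those with all 5 values were examined. The *Lrat* controls (brighter probe) and *Aldh1a1* at the middle dose had 4 values each and were not examined. Of the groups examined, 4 held an array far from the others by Dixon's criterion, and chance alone would give such a gap in about 1 of 20 groups. None of the 4 was in a retinoid member gene. *Cyp1a1* at the high dose was 3.64 in replicate 16, with the next at 0.49. *Tiparp* at the low dose was -1.86 in replicate 8, with the next at -2.29. *Rdh13* at the high dose was -0.64 in replicate 20, with the next at -0.27. *Rarres2* at the middle dose was 4.38 in replicate 11, with the next at 4.23.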

How the results depend on the processing

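The retinoid genes called stayed at 0 of 8 at each dose and for the trend under every alternative run. Of the other pathway genes, 0 were called at the high dose, but 1 (*Nr2f2*) with slide as a block, and from 0 to 1 with an array left out (1, *Nr2f2*, without control replicate 3). With a dose trend there were 0 under every alternative run. The sign of some estimates turned. *Aldh1a1* at the low dose was -0.20 on the liver channel alone and -0.09 with slide as a block, at the high dose it was -0.01 on the liver channel alone, and with an array left out it ranged from -0.15 to 0.18 at the low dose and from -0.11 to 0.26 at the middle dose. *Cyp26b1*, reported at 0.56 for the low dose, was -0.11 there and -0.56 at the high dose with slide as a block, -0.06 at the high dose on the liver channel alone, and from -0.19 to 0.33 there with an array left out. *Cyp26a1* at the low dose ranged from -0.03 to 0.61 with an array left out. At the high dose *Rarres2* (reported at 0.41) was -0.07 on the liver channel alone, *Rxrg* (reported at -0.36) 0.09 and *Cyp1b1* 0.27 on the processed signals, and *Cyp1b1* 0.09 with slide as a block. The cause of these changes was not tested. The ratios correlated with the deposited ones at r from 0.994 to 0.996 across probes, which are not independent replicates. The labels pair no arrays by replicate number, so slide was the only block fitted.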

Other observations

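Markers of the remaining cell types of the liver give the setting of these values. At the low, middle and high dose the median log2 fold change was 0.27, 0.26 and 0.33 for 12 pericentral hepatocyte markers, 0.34, 0.29 and 0.34 for 10 endothelial markers, 0.18, 0.21 and 0.12 for 9 Kupffer cell and macrophage markers, and -0.22, -0.08 and -0.05 for 6 bile duct markers. On the liver channel alone the medians at the high dose were 0.16 for pericentral, 0.31 for endothelial, -0.04 for Kupffer cell and -0.04 for bile duct markers. At the high dose 1 of 10 endothelial and 1 of 9 Kupffer cell markers were called higher in limma, where 0.135% of all probes were called. None of the pericentral and bile duct markers was called. The lists hold *Marco* and *Lyve1* (*Xlkd1* in the study), which the study reports as higher after BaP in these samples, so the lists are not independent of its results. For 5 adipocyte markers the medians were -0.06, 0.05 and 0.14. For 4 present lung markers they were 0.07, 0.22 and 0.10, and *Sftpc*, *Sftpb* and *Foxj1* were not present.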
